A study of Mus musculus with 8 samples.

Results

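The 43 imprinted genes described here were chosen by symbol as known members of mouse imprinted clusters, and all 43 were found among the 21887 protein-coding genes of a RefSeq gene table for GRCm38.p6, the assembly of mm10. They fall into 20 clusters, 10 of which hold 1 member only. The assay was ATAC-seq on mouse embryonic stem cells, where a transposase cuts and tags open DNA. There were 4 groups with 2 replicates each, 8 samples in all. Ubc9-depleted cells of the v6.5 line carry a TET-OFF system through which 72 hours of doxycycline (DOX) removes Ubc9, the enzyme that conjugates SUMO to proteins, and Ubc9-control cells are cells of the same line. H1 triple-knockout cells carry deletions of 3 linker histone genes (H1.2-/-H1.3-/-H1.4-/-) and were set against H1 wild-type cells, both lines having been taken from an earlier study. All groups were grown in 2i/LIF medium for 4 passages. Doxycycline is named for the depleted cells only, so the drug and the depletion cannot be told apart.

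At an imprinted gene 1 parental copy is expressed and the other is silent. The difference rests on DNA methylation laid down in egg or sperm at a CG-rich control element, which after fertilisation is kept by the zinc-finger proteins ZFP57 and ZFP445, by TRIM28 and SETDB1, and by DNMT1 with its partner UHRF1. Culture of stem cells in 2i medium is known to lower DNA methylation, at imprinted elements as well. Peak lists carry no information on the parental copy, so an accessible region here may lie on either copy or on both.

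Each group had 1 deposited list of accessible regions, standing for both of its replicates, so no value below has a replicate check and no test was made. The labels do not say how the replicates were combined, so whether a region missing from a list was called in 1 replicate is unknown. The Ubc9 pair held 48730 regions in depleted and 46847 in control cells, and the H1 pair 58039 in triple-knockout and 55489 in wild-type cells. The score of a region is the authors' own, runs upward from 50.0, and is used here only to rank regions within a list. A region was called shared when it overlapped a region of the other list of its pair by at least 1 bp. Without a partner were 45.6% of the depleted and 43.3% of the control regions, and 31.4% of the triple-knockout and 28.8% of the wild-type regions. Read depth is unknown. Lists of the 4 groups differ in more than these genes. Of 5 genes that mark the 2-cell embryo, 5 had a region at a gene end in the depleted list and 0 in each other list. Of 10 stem cell markers 6 had one in depleted cells and 8 in each of the control, triple-knockout and wild-type cells, while of 8 fibroblast markers 2, 3, 2 and 2 had one in the same order. In the H1 pair chromosomes 6 and 8 stood apart. Regions without a partner numbered 760 in triple-knockout and 1524 in wild-type cells on chromosome 6 (ratio 0.499) and 561 and 1453 on chromosome 8 (0.386), against a median ratio of 1.14 over autosomes. The part played by these differences in the results on imprinted genes was not tested.

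Annotated start windows are printed here for the 6 members whose starts are mapped in the plot of regions around starts. A start of each carried a region in 1 list of a pair only, as did starts of Ddc, Gnas, Slc38a4, Usp29, Asb4, Mkrn3 and Osbpl5, which are not printed. The 6 were picked after their values were seen, as examples of starts on which the lists disagree, and Plagl1, which had one in all 4 lists, is given for contrast. Each window runs from 250 bases before to 50 bases after the start in the direction of transcription, from RefSeq (GRCm38.p6). Capitals mark CG dinucleotides, the sites that carry DNA methylation.
Mest, inner start (chr6:30737800-30738099, plus strand): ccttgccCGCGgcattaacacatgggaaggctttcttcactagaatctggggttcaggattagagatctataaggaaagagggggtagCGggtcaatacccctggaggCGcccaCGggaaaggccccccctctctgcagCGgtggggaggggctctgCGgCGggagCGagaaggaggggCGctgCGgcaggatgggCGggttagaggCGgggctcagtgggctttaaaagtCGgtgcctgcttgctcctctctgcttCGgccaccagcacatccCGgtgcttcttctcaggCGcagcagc
Mest, outer start (chr6:30733256-30733555, plus strand): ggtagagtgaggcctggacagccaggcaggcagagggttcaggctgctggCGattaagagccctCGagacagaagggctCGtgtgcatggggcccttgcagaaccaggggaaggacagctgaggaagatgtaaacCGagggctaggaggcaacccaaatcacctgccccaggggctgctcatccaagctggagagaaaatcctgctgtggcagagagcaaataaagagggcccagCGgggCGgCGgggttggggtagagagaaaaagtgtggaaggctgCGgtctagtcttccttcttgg
Peg3 (chr7:6730370-6730669, minus strand): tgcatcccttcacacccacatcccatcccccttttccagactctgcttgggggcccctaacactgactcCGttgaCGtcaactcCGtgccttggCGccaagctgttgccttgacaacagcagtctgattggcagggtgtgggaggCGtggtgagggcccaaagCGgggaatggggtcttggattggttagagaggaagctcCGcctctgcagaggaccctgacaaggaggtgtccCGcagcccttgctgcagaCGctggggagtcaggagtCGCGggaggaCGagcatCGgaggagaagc
Igf2r (chr17:12769657-12769956, minus strand): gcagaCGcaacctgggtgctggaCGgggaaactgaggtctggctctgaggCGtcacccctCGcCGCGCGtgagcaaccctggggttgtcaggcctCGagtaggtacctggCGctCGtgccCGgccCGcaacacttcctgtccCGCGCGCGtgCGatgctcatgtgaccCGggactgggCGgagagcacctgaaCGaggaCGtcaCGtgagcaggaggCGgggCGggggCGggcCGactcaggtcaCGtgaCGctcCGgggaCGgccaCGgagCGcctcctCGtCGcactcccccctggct
Grb10 (chr11:12037371-12037670, minus strand): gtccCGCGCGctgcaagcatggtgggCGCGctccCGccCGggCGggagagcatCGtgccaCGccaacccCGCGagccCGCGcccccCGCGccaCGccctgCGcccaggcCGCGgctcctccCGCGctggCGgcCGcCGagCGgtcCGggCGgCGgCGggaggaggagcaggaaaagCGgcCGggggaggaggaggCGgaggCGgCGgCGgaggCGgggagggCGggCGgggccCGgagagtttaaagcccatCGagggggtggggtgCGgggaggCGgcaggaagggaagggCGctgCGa
Rasgrf1 (chr9:89909525-89909824, plus strand): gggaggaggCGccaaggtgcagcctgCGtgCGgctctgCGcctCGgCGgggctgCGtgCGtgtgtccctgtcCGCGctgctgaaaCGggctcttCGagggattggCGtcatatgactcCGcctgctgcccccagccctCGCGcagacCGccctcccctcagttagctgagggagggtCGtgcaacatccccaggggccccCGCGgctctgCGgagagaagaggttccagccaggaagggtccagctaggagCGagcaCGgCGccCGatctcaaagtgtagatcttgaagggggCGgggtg
Cdh15 (chr8:122848124-122848423, plus strand): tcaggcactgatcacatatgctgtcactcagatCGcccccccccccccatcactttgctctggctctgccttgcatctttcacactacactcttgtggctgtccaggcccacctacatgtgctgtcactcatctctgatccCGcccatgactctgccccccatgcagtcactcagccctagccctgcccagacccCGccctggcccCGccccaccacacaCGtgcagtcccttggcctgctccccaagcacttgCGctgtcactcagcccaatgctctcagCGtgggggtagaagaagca
Plagl1 (chr10:13090582-13090881, plus strand): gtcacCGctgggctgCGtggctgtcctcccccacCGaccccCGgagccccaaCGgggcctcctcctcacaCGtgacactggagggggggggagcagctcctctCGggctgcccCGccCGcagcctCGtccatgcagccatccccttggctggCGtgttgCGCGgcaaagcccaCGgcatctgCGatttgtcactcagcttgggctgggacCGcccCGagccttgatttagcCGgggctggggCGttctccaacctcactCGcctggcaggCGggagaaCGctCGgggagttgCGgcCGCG
The windows differ widely in CG content. Grb10 held 45 CG dinucleotides, Igf2r 34, Rasgrf1 and Plagl1 26 each, the inner Mest start 17, Peg3 13, the outer Mest start 8 and Cdh15 7. The hexamer TGCCGC, searched on both strands, which ZFP57 binds when methylated, occurred in the inner Mest window at bases 9 and 184, in Grb10 at base 275 and in Plagl1 at base 161, counted from the 5′ end, and these letters were not in the other 5 windows.

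A region within 1 kb of either gene end, called a gene-end region here, was found for 28 of the 43 members in depleted and 24 in control cells, and for 27 in triple-knockout and 21 in wild-type cells. These are 65.1%, 55.8%, 62.8% and 48.8% of the members. Over all protein-coding genes the shares were 54.4% in depleted, 53.1% in control, 51.4% in triple-knockout and 51.7% in wild-type cells. The members thus had more gene-end regions in each perturbed list than in its control list, while all genes differed little within a pair. In all 4 lists 16 members had one, among them the ubiquitin ligase gene Ube3a, the growth inhibitor gene Cdkn1c and the zinc-finger gene Plagl1. In 3 lists there were 6 members, in 2 lists 6 and in 1 list 6. The remaining 9 had none in any list: Snrpn, Igf2, Ins2, Phlda2, Dlk1, Rtl1, Slc22a2, Slc22a3 and Ddc. They include the growth factor gene Igf2, the insulin gene Ins2 and the Notch-pathway ligand gene Dlk1.

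**Figure D1:**
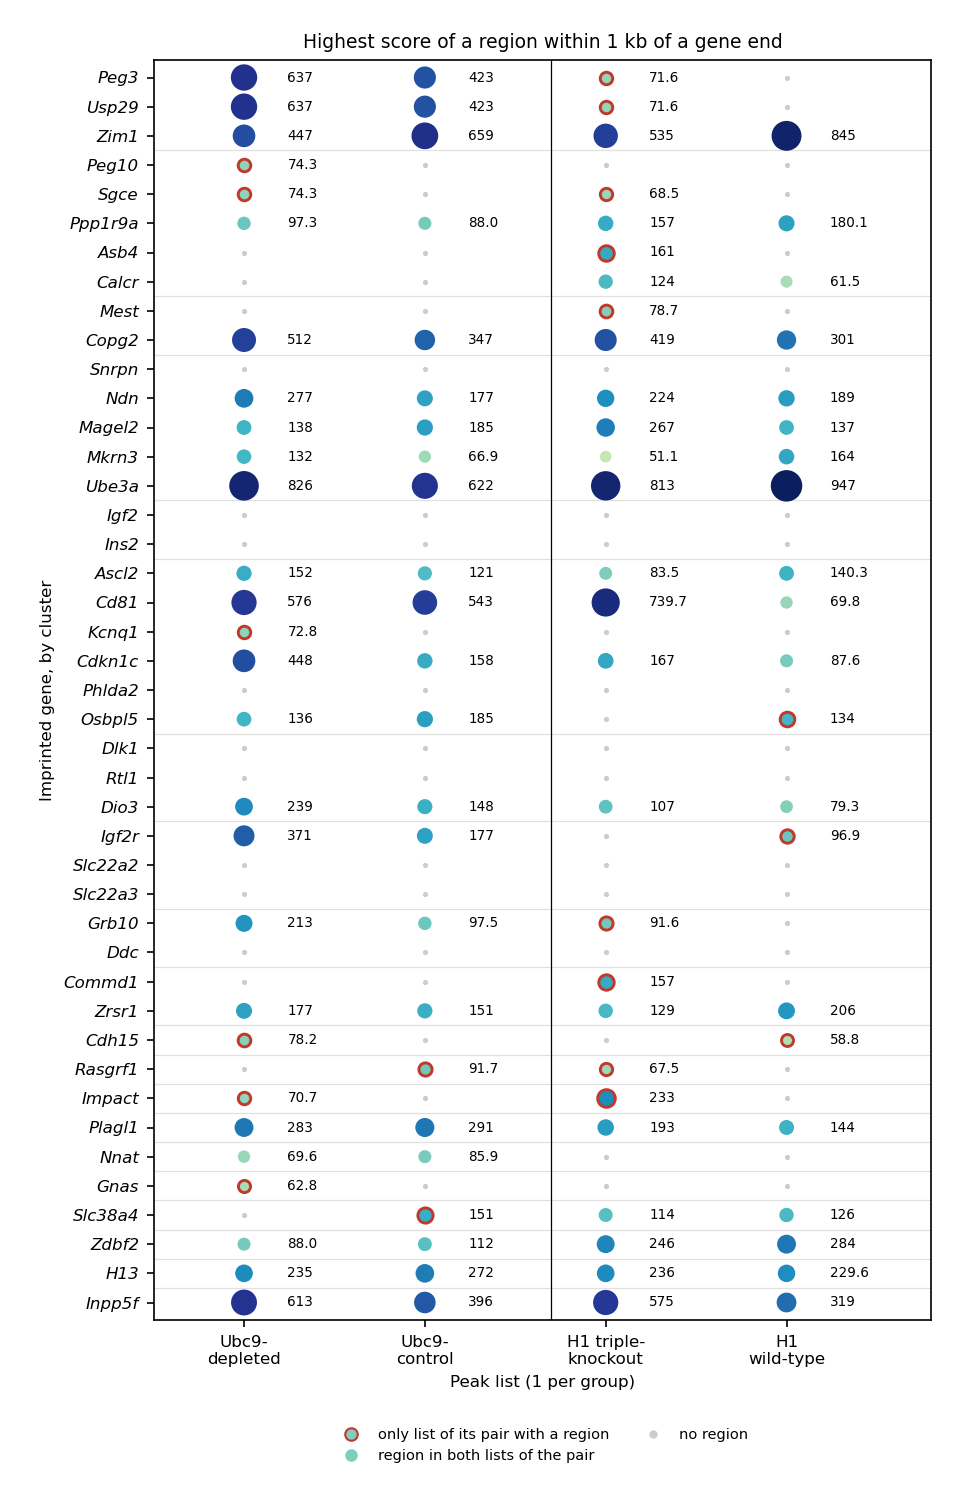
Highest score of a region within 1 kb of a gene end for each of the 43 imprinted genes (rows, by cluster) in the 4 peak lists (columns, 1 list per group). Circle size and shade follow the score, which is printed beside it, and red rings mark members with a region in only 1 list of a pair. Ube3a and Zim1 carry high scores in all 4 columns, while most ringed circles are small, with scores between 58.8 and 233.

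The highest gene-end scores belonged to few genes. Ube3a had 826 in depleted and 622 in control cells, and 813 in triple-knockout and 947 in wild-type cells, each at or above the 97.9 percentile of its list. Zim1, a zinc-finger gene beside Peg3, had 447 and 659 in depleted and control cells, and 535 and 845 in triple-knockout and wild-type cells. A region at the boundary of Peg3 and Usp29 scored 637 in depleted and 423 in control cells. These regions were shared within their pairs, so the sites were accessible in both groups of each. The phosphatase gene Inpp5f (613 in depleted and 396 in control, 575 in triple-knockout and 319 in wild-type cells) and the tetraspanin gene Cd81 (576 and 543 in depleted and control cells, 739.7 in triple-knockout cells) were also high. In wild-type cells the Cd81 gene-end region scored 69.8. There the wild-type list held a region of score 652 over the neighbouring start of Tssc4, which met the triple-knockout region of 739.7 but lay outside the 1 kb window of Cd81. The coat-protein gene Copg2 scored 512 in depleted and 347 in control cells, and 419 in triple-knockout and 301 in wild-type cells. Zdbf2 scored 88.0 in depleted and 112 in control cells, and 246 in triple-knockout and 284 in wild-type cells.

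Whether loss of SUMO conjugation changes accessibility at imprinted genes was examined in the Ubc9 pair. Of the 19 members without a gene-end region in control cells, 6 had one in depleted cells (31.6%, exact Clopper-Pearson 95% interval 12.6 to 56.6, counting error only). Over all protein-coding genes in the same state the share was 11.3%. In the other direction, 2 of the 15 members without one in depleted cells had one in control cells (13.3%, interval 1.66 to 40.5), against 8.81% of all genes. The interval of the control share spans that of all genes. The depleted share was above that of all genes, but it counts 1 region that Peg10 and Sgce share for both genes, and the number falls with score, as given next. No interval was computed with that region counted once, so whether the depleted share stands clear of all genes is not settled here. Counting only regions of score 100 or more, the numbers were 0 in depleted and 1 in control cells. With the top 30000 regions of each list, or with a score of 100 or more required in both lists, they were 2 in depleted and 2 in control cells. With neighbours that share a region counted once, the depleted number was 5. The share over all genes was not computed at these settings, so these numbers have no such comparison.

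The 6 members were Peg10, Sgce, Kcnq1, Cdh15, Impact and Gnas. Peg10, a gene derived from a retrotransposon and needed in the placenta, and Sgce, which encodes a sarcoglycan, are transcribed away from each other and shared 1 region of 1348 bp at chr6:4747018-4748365, with a score of 74.3 in depleted cells. Control cells had none within 1 kb, and their nearest region, inside Peg10, lay 666 bp away and scored 331. That region had a partner in depleted cells, of score 487, so Peg10 was accessible in both groups and the added region lay beside it. Neither H1 list held the added region.

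The other 4 members had regions of their own. Cdh15, which encodes the muscle cadherin, had a region over its start in depleted cells (score 78.2, chr8:122848173-122848491) and none in control cells, whose nearest was 12898 bp away. Kcnq1, a potassium channel gene, had one at its left end with a score of 72.8, and the nearest control region was 16951 bp away. Impact, a gene for a regulator of translation, had one of 70.7, with the nearest control region at 6275 bp, and Gnas, which encodes a G-protein subunit, one of 62.8, with the nearest at 9569 bp. All of these ranked low. The scores from 62.8 to 78.2 lay between the 4.71 and 17.6 percentile of the depleted list. Impact, Gnas and Kcnq1 also held shared regions inside the gene, of 629.9, 300.4 and 209 in depleted and 512, 314 and 405 in control cells. In control cells and not in depleted cells, Slc38a4, an amino acid transporter gene, and Rasgrf1, a gene for a Ras activator, had a gene-end region. The Slc38a4 region scored 151 in control cells, with no region of depleted cells within 17812 bp, and that of Rasgrf1 scored 91.7, with none within 29755 bp.

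Whether loss of linker histone does so was examined in the H1 pair. Of the 22 members without a gene-end region in wild-type cells, 9 had one in triple-knockout cells (40.9%, interval 20.7 to 63.6), against 9.21% of all genes. Of the 16 members without one in triple-knockout cells, 3 had one in wild-type cells (18.8%, interval 4.05 to 45.6), against 9.84% of all genes. The 9 were Peg3, Usp29, Sgce, Asb4, Mest, Grb10, Commd1, Rasgrf1 and Impact, and the 3 were Osbpl5, Igf2r and Cdh15. Without chromosomes 3, 6 and 8 the counts were 6 and 2, and the share over all genes was not computed without them. Sgce, Asb4 and Mest lie on chromosome 6 and Cdh15 on chromosome 8. In the first 40 Mb of chromosome 6, where the members of that chromosome lie, regions without a partner numbered 251 in triple-knockout and 326 in wild-type cells (ratio 0.77). From 110 Mb on chromosome 8, around Cdh15, they numbered 98 and 249 (0.394).

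**Figure D2:**
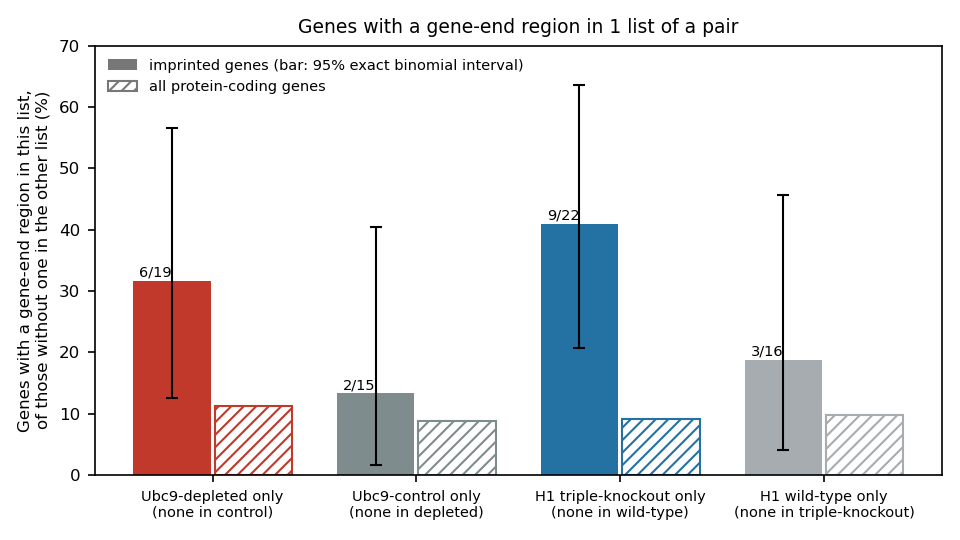
Percent of genes with a gene-end region in the named list among genes without one in the other list of the pair, for the imprinted genes (filled bars, with exact 95% binomial intervals and counts) and for all protein-coding genes (hatched bars). The members stand at 31.6% and 13.3% in depleted and control cells and at 40.9% and 18.8% in triple-knockout and wild-type cells, against 8.81% to 11.3% of all genes. Peg10 and Sgce count through the same depleted region, and Peg3 and Usp29 through the same triple-knockout regions, which the intervals do not allow for.

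The triple-knockout regions were mostly weak as well. Asb4, a gene for an ankyrin-repeat protein, had a region of score 161 before its start, and the nearest wild-type region was 14009 bp away. Commd1, a gene for a regulator of copper transport, had one of 157 at the end opposite its starts, with the nearest at 17546 bp, while its outer start had a shared region in every list (229.6 in depleted and 229 in control, 233 in triple-knockout and 207 in wild-type cells). Grb10, which encodes an adaptor that restrains insulin signalling, had one of 91.6 across its start, with the nearest at 10791 bp. Mest, which encodes a hydrolase-like protein, had one of 78.7 before its outer start, and Sgce one of 68.5 at its far end, which is not the end it shares with Peg10. Impact is a case of the window edge: its region of 233 in triple-knockout cells overlapped a wild-type region of 138 that began just beyond 1 kb of the gene end. Peg3, a zinc-finger gene, and Usp29, a ubiquitin protease gene that starts beside it, shared both regions that counted for them, of 71.6 and 68.3. With neighbours that share a region counted once, the triple-knockout count was 8. Counting only regions of score 100 or more, the numbers were 3 in triple-knockout and 1 in wild-type cells. They were equal in triple-knockout and wild-type cells with the top 30000 regions of each list (5 and 5) and with windows of 2500 bp (4 and 4). At none of these settings was the share over all genes computed.

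The 3 members with a gene-end region in wild-type and not in triple-knockout cells had it over a start. Osbpl5, which encodes a lipid-binding protein, had one of 134 over its start, with no triple-knockout region within 65533 bp. Igf2r, which encodes the receptor that clears IGF2, had one of 96.9 over its start, with none within 28183 bp. Cdh15 had one of 58.8, with none within 17577 bp. In both lists of the Ubc9 pair the Igf2r start carried a shared region (371 in depleted and 177 in control cells), as did the Osbpl5 start (136 and 185). Calcr and Mkrn3 had a gene-end region in both H1 lists, yet at different places. At Calcr, the calcitonin receptor gene, the regions of 124 in triple-knockout and 61.5 in wild-type cells lay 616 bp apart. At Mkrn3, a gene for a ring-finger protein, those of 51.1 and 164 lay 1268 bp apart, the first at the start and the second at the other end.

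Cdh15 and Rasgrf1 went opposite ways in the pairs. The Cdh15 start carried a region in depleted and in wild-type cells (78.2 and 58.8) and none in control and triple-knockout cells. The Rasgrf1 start carried one in control cells (91.7) and 2 in triple-knockout cells (67.5 and 56.0, of 34 and 179 bp), and none in depleted and wild-type cells. The nearest wild-type region lay 1047 bp away, inside the gene, with a score of 79.5. Sgce and Impact had a gene-end region in both perturbed lists and in neither control list. For Sgce the regions lay at opposite ends of the gene, while for Impact they overlapped, and the wild-type region just outside the window lay at the same place.

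How the regions divide by score shows where the lists disagree. Among gene-end regions with a score under 100, 6 of 10 of the members' regions had no partner in depleted cells and 1 of 5 in control cells, against 42.6% and 40.9% of such regions of all genes. In triple-knockout cells it was 10 of 12 and in wild-type cells 3 of 7, against 46.6% and 44.2%. Pieces were counted separately, and the 10 include 2 at the Rasgrf1 start (34 and 179 bp). They also include 2 (68.3 and 71.6) beside the Peg3 region shared in the H1 pair. At scores of at least 100, 0 of 20 in depleted and 2 of 22 in control cells had none, against 7% and 5.51%, and 4 of 24 in triple-knockout and 3 of 18 in wild-type cells, against 8.37% and 8.4%. The 4 include a second piece of the Copg2 region, 134 bp from its wild-type counterpart. These counts cover gene ends only, not the inner starts described next.

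Annotated starts, known for the 36 members in the RefSeq promoter table, gave a sharper view than gene ends, because some members start inside their outer bounds. Sgce, Peg10, Ins2, Kcnq1, Cdkn1c, Rtl1 and Impact had no entry there. A region within 1 kb of a start was found for 26 members in depleted and 24 in control cells, and for 26 in triple-knockout and 22 in wild-type cells. Of the 12 members without one in control cells, 4 had one in depleted cells (Mest, Ddc, Cdh15 and Gnas, against 10.6% of all genes). Of the 10 without one in depleted cells, Rasgrf1 and Slc38a4 had one in control cells (8.14% of all genes). In triple-knockout cells 7 of 14 had one that wild-type cells lacked (Peg3, Usp29, Asb4, Mkrn3, Grb10, Rasgrf1 and Gnas, against 8.11%). Peg3 and Usp29 count through the same regions (71.6 and 68.3). Those of Mkrn3 (51.1), Gnas (56.1) and Rasgrf1 (67.5 and 56.0) were low, with 50.0 the lowest of the list. Grb10 had 91.6 and Asb4 161. In wild-type cells 3 of 10 had one that triple-knockout cells lacked (Osbpl5, Igf2r and Cdh15, against 9.13%).

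Mest had the highest score of these. Its inner start, at base 30738050 of chromosome 6, lies in the element that is methylated on the maternal copy. In depleted cells a region of 719 bp and score 324 covered this start, at the 85.9 percentile of the list, and a second of score 74.1 lay before it. In control cells there was none within 1 kb. In wild-type cells 2 regions of 94.5 and 80.3 lay at the same places and in triple-knockout cells none, so the pairs differ in opposite directions here. The outer start, 4.54 kb upstream, carried only the triple-knockout region of 78.7. The Gnas start at base 174330006 of chromosome 2 had a region in depleted (103) and in triple-knockout cells (56.1) and in neither control list. Ddc, which encodes a decarboxylase of dopamine synthesis, had a region of 72.3 at its inner start in depleted cells. Snrpn, which has no gene-end region, had one within 1 kb of its innermost start in every list (163 in depleted, 198 in control, 128 in triple-knockout and 177 in wild-type cells). Those regions lay inside the gene and did not reach the start window. A second region overlapped that window in depleted (63.2) and wild-type cells (64.2) only.

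At Peg3 the H1 lists were alike inside the gene and differed at the start. A region of 1900 bp and score 732 in triple-knockout cells and one of 1884 bp and 726 in wild-type cells began 1359 and 1338 bp downstream of the start. Triple-knockout cells had 2 more, of 412 bp (68.3) and 307 bp (71.6), the second across the start, and wild-type cells had none there. In the Ubc9 pair the order was different. The depleted region of 2790 bp began 519 bp downstream of the start, while the control region of 3479 bp began at -232 bp, upstream of the start, and covered it. The letters printed above for Peg3 were thus overlapped by a region in control and triple-knockout cells, and by none in depleted and wild-type cells.

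**Figure D3:**
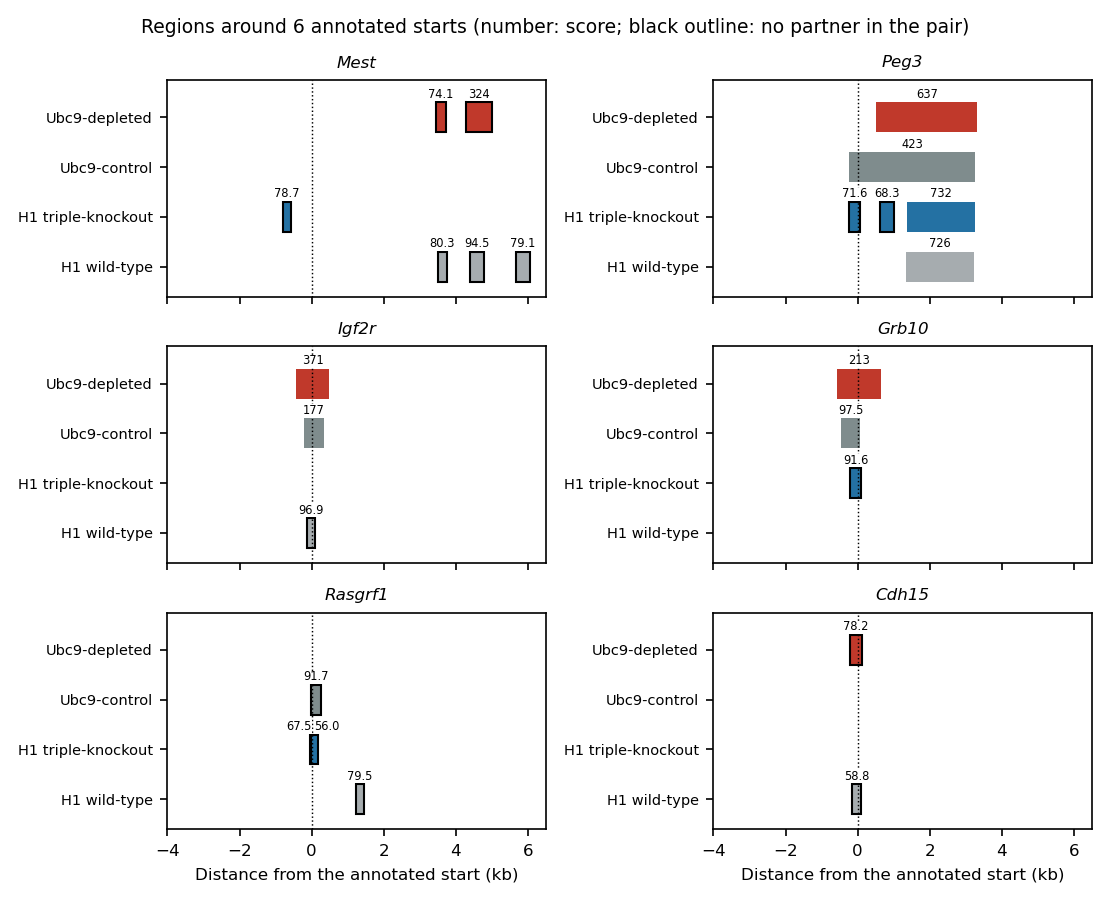
Regions within 4 kb upstream and 6.5 kb downstream of an annotated start (0, dotted line) of 6 imprinted genes in the 4 lists, drawn to scale in the direction of transcription, with scores above them and a black outline where the other list of the pair has no overlapping region. At Mest the inner start, 4.54 kb to the right, is covered in depleted and wild-type cells, and at Peg3 the start itself is covered in control and triple-knockout cells.

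Several control elements of imprinted clusters were accessible in every group. The starts of the noncoding RNAs Kcnq1ot1 and Airn, which lie in the control elements of the Kcnq1 and Igf2r clusters and silence their neighbours, had shared regions in all 4 lists. Kcnq1ot1 scored 329 in depleted and 379 in control cells, and 149.7 in triple-knockout and 284 in wild-type cells. Airn scored 148 in depleted and 133 in control cells, and 137 in triple-knockout and 77.3 in wild-type cells. The starts of Plagl1 (283 in depleted and 291 in control, 193 in triple-knockout and 144 in wild-type cells) and of Zrsr1, which lies inside Commd1 (177 in depleted and 151 in control, 129 in triple-knockout and 206 in wild-type cells), likewise had one in every list. In the Dlk1-Dio3 cluster a region of 1244 bp inside the noncoding gene Meg3 scored 449.7 in depleted cells, with a partner of 1058 bp and 135 in control cells, and neither H1 list had one there. Between Dlk1 and Meg3 control cells alone held a region of 57.7 and one of 70.8 (chr12:109525723-109526107 and chr12:109527494-109527715). In the Igf2-H19 cluster, within 50 kb of Igf2 and Ins2, 1 region outside protein-coding genes was found in each list (226 in depleted and 380.4 in control, 418 in triple-knockout and 411 in wild-type cells). The only other was a triple-knockout region of 241. H19 (chr7:142575530-142578146) lies outside that span, so control sequence next to H19 was not covered. No list held a region within 1 kb of an end of H19.

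Within 50 kb of the members, each region counted once, lay 192 regions in depleted and 175 in control cells, and 229 in triple-knockout and 208 in wild-type cells. In depleted cells 75 had no partner (39.1%, interval 32.1 to 46.3) and in control cells 58 (33.1%, interval 26.2 to 40.6). Both shares were below those of the whole lists, 45.6% and 43.3%, the depleted one with an interval that includes the whole-list share. In triple-knockout cells 75 had none (32.8%, interval 26.7 to 39.2) and in wild-type cells 58 (27.9%, interval 21.9 to 34.5), which are close to the whole lists' 31.4% and 28.8%. In none of the 4 lists was the members' share above that of the whole list by more than its interval. The intervals treat regions as independent, although many lie in the same cluster, so they decide no difference. Peg10-Sgce alone held 33 of the depleted and 54 of the triple-knockout regions. Without chromosomes 3, 6 and 8 the H1 counts were 54 and 45. The regions without a partner had median scores of 99.8 in depleted and 96.9 in control cells, and 79.5 in triple-knockout and 85.6 in wild-type cells, against 152 and 179, and 175 and 170.0, for shared ones.

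By place, 42 of the 75 depleted regions without a partner lay outside protein-coding genes (56%, against 69.6% over the list). Another 23 lay inside a gene and 10 at a gene end (13.3%, against 5.88%). Of the 58 control ones, 19 lay outside (32.8%, against 50.3%), 33 inside and 6 at an end (10.3%, against 6.36%). In triple-knockout cells 30 lay outside (40%, against 48.6%), 26 inside and 19 at a gene end (25.3%, against 10.3%), and in wild-type cells 15 outside (25.9%, against 49%), 34 inside and 9 at an end (15.5%, against 12.5%). Near imprinted genes, then, a larger part of the regions without a partner lay inside or at genes than over the whole lists. The choice of regions near genes favours this. Taken alone, the part inside genes was larger in depleted (30.7%, against 24.6%), control (56.9%, against 43.4%) and wild-type cells (58.6%, against 38.6%). In triple-knockout cells it was smaller (34.7%, against 41%).

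Clusters differed in size and direction. In the Ubc9 pair 9 clusters had more regions without a partner in depleted cells, 6 more in control cells and 5 equal numbers, and in the H1 pair 9 had more in triple-knockout cells, 9 more in wild-type cells and 2 equal numbers. Peg10-Sgce, with 5 members on chromosome 6, had the most in both perturbed lists, where it also held the most regions. It had 19 of 33 regions in depleted and 5 of 19 in control cells. In triple-knockout cells it was 17 of 54 and in wild-type cells 8 of 43. Over the whole lists 45.6%, 43.3%, 31.4% and 28.8%, in the same order, had no partner. In the first 40 Mb of the chromosome the depleted and control numbers were 335 and 231 (ratio 1.45, against a median of 1.12 over autosomes). The highest-scoring of the 19 depleted ones lay outside genes at chr6:3655782-3657558 (311), and of the 5 control ones inside Sgce (322). The highest triple-knockout one was a fragment of 52 bp (302), and the highest wild-type one, at chr6:3646709-3647128, scored 269.6 and overlapped a depleted region.

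The Mest cluster had 7 of 9 regions without a partner in depleted cells, led by the inner start (324), and 0 of 2 in control cells. In triple-knockout and wild-type cells it was 3 of 5 each, up to 419 and 94.5. That of 419 was the second piece of the Copg2 region, whose other piece was shared. Inpp5f had 6 of 10 in depleted cells, up to 183 inside the gene, and 1 of 5 in control cells (73.5), and none in either H1 list. The Kcnq1 cluster had 7 of 23 in depleted cells, the highest of 555 at an end of Tnfrsf23, and 3 of 19 in control cells (up to 97.3). In triple-knockout cells it was 3 of 15 (up to 82.0) and in wild-type cells 8 of 20 (up to 194, inside Osbpl5). Peg3 leaned to the controls in both pairs, with 2 of 11 in depleted (up to 156) and 9 of 18 in control cells (up to 221, inside Usp29). In triple-knockout cells it was 6 of 17 (up to 191) and in wild-type cells 11 of 22 (up to 497, inside Aurkc). That of 191 was a piece of 120 bp beside a shared region of the same score. Rasgrf1 had 2 of 4 in depleted (up to 139) and 7 of 9 in control cells (up to 103). In triple-knockout cells it had 5 of 9 (up to 220.4) and in wild-type cells 2 of 6 (up to 79.5).

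Nnat, Commd1-Zrsr1 and Gnas had at least 4 such regions in triple-knockout cells and 0 in wild-type cells. Nnat, a gene for a brain proteolipid inside an intron of Blcap, had 6 of 7 and 0 of 1, up to 127. The region over Nnat itself (72.6) was among them. In the Ubc9 pair a region over Nnat was shared (69.6 in depleted and 85.9 in control cells). The cluster had 2 of 5 and 0 of 3 without a partner (up to 81.8). Commd1-Zrsr1 had 6 of 15 in triple-knockout and 0 of 9 in wild-type cells, up to 157, 1 of them a fragment of 12 bp. In depleted (71.8) and control cells (63.2) it had 1 of 9 each. Gnas had 4 of 7 in triple-knockout and 0 of 3 in wild-type cells, up to 176 inside the gene. In depleted (up to 103) and control cells (up to 133) it had 2 of 4 each.

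**Figure D4:**
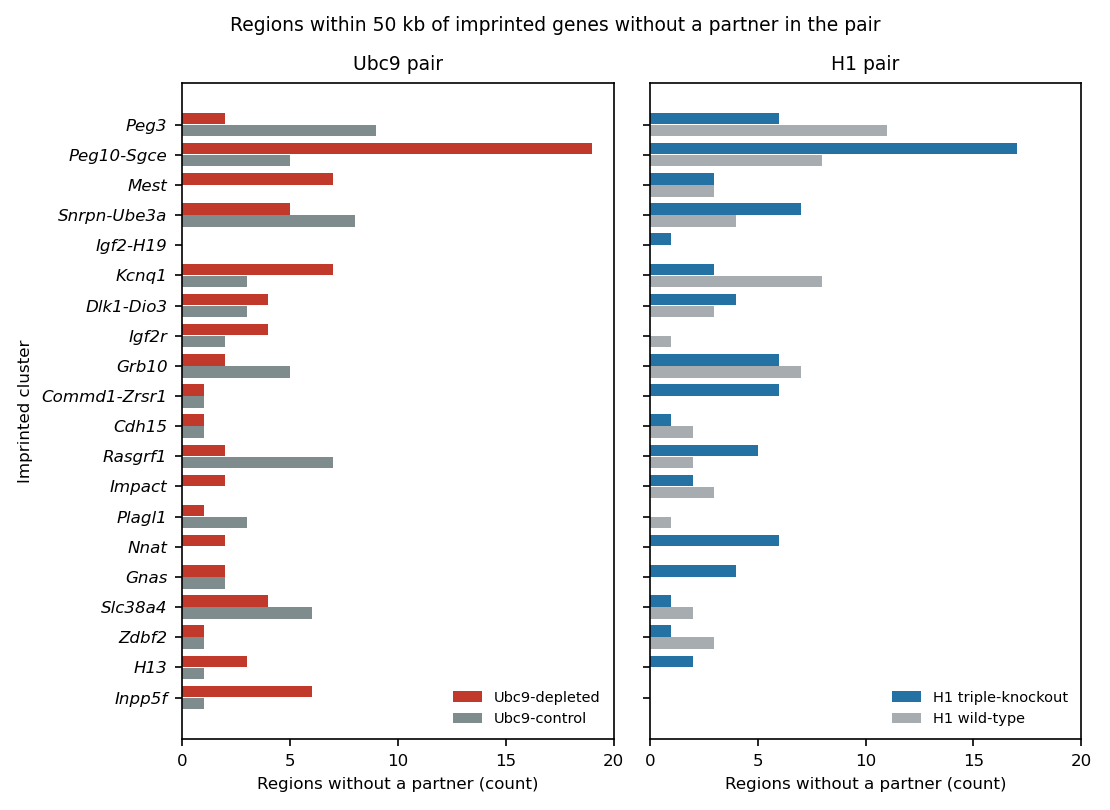
Regions within 50 kb of the members of each imprinted cluster that were unshared within the pair, for depleted and control cells (left) and triple-knockout and wild-type cells (right). Peg10-Sgce has the longest bars in both panels, 19 and 17, Mest has 7 against 0 in the Ubc9 pair, and Nnat and Commd1-Zrsr1 have 6 against 0 in the H1 pair. Bars are counts, and clusters differ in how many regions they hold, for Peg10-Sgce 33 in depleted and 54 in triple-knockout cells.

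The other clusters had lower or more even numbers. Snrpn-Ube3a had 5 of 17 in depleted (up to 234) and 8 of 20 in control cells (up to 243, inside Snrpn). In triple-knockout cells it had 7 of 24 (up to 336) and in wild-type cells 4 of 21 (up to 164). That of 336 lay at a place with regions in all 4 lists, of 236 in wild-type cells. Grb10 had 2 of 15 (up to 87.9) and 5 of 18 (up to 265), both inside Ddc, in depleted and control cells. In triple-knockout and wild-type cells it had 6 of 22 (up to 93.6) and 7 of 23 (up to 362, inside Ddc). Dlk1-Dio3 had 4 of 8 in depleted (up to 190.2, in Rtl1) and 3 of 7 in control cells (up to 75.2). In triple-knockout cells it had 4 of 5 (up to 189.9) and in wild-type cells 3 of 4 (up to 158). None of these leaned the same way by more than 2 regions in both pairs.

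Igf2r had 4 of 6 in depleted (up to 206) and 2 of 4 in control cells (up to 108). In triple-knockout cells it had 0 of 1 and in wild-type cells 1 of 2, its start. Slc38a4 had 4 of 9 (up to 349) and 6 of 11 (up to 151, its start) in depleted and control cells. In triple-knockout and wild-type cells it had 1 of 7 (111) and 2 of 8 (up to 143). Impact had 2 of 6 in depleted (up to 89.0) and 0 of 4 in control cells. In triple-knockout and wild-type cells it had 2 of 10 (up to 199) and 3 of 9 (up to 188). Zdbf2, H13, Plagl1 and Cdh15 had at most 3 in any list. In depleted, control, triple-knockout and wild-type cells the highest at Zdbf2 scored 215, 70.5, 87.7 and 218. In the same order they were 108, 101, 56.7 and none at H13, and 89.1, 118, none and 183 at Plagl1. At Cdh15 they were 78.2, 70.7, 64.8 and 58.8.

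Joined over the 4 lists, the regions near the members formed 349 separate loci, of 94652 in the genome. In all 4 lists 91 were found (26.1%, against 21.8% of all loci). Both perturbed lists and neither control list held 6 (1.72%, against 1.44%), at Gnas (the start with 103 and 56.1), at the start of Blcap beside Nnat, near Dlk1, and at 3 places of the Peg10-Sgce cluster. Both control lists and neither perturbed list held 8 (2.29%, against 3.68%), 3 of them in the Peg3 cluster. Loci in depleted and wild-type cells numbered 6 (1.72%, against 0.954%), 2 of them at Mest, and loci in control and triple-knockout cells 4 (1.15%, against 2.66%), 2 of them at Rasgrf1. Loci common to both perturbed lists thus made up a similar share near imprinted genes and elsewhere.

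By the copy that is known to be expressed, 21 members are expressed from the paternal and 16 from the maternal copy, and for 6 it depends on tissue or transcript. Of the paternally expressed ones, 3 of 9 without a gene-end region in control cells had one in depleted cells, and 2 of 8 the other way. In the H1 pair 6 of 13 without one in wild-type cells had one in triple-knockout cells, and 0 of 7 the other way. The 6 include Peg3 and Usp29, which count through the same regions, and Impact, the case of the window edge. Of the maternally expressed ones it was 1 of 7 in depleted and 0 of 6 in control cells, and 2 of 6 in triple-knockout and 2 of 6 in wild-type cells. Of the 6 others it was 2 of 3 in depleted and 0 of 1 in control cells, and 1 of 3 in triple-knockout and 1 of 3 in wild-type cells. All genes in the same state stood at 11.3% in depleted, 8.81% in control, 9.21% in triple-knockout and 9.84% in wild-type cells. The groups are small, and no difference between them was tested. In triple-knockout cells 14 of the 21 paternally expressed members had a gene-end region and in wild-type cells 8, while 10 of the 16 maternally expressed ones had one in each.

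A second list, of 28 imprinted genes and noncoding RNAs that are not members, had 27 in the gene table. In each pair 4 of the 15 without a gene-end region in the control list had one in the perturbed list, and 0 of 11 the other way. Of all protein-coding genes in the same state the shares were 11.3% in depleted and 9.21% in triple-knockout cells. The other way they were 8.81% in control and 9.84% in wild-type cells. These shares cover no noncoding genes, while the second list holds several, Peg13 among them. In depleted cells the 4 were Peg13 (222), Klf14 (116), Begain (86.5) and Blcap (78.7), and in triple-knockout cells Kcnk9 (189.6), Cpa4 (134), Peg13 (103) and Blcap (75.9). Peg13, a noncoding RNA, and Blcap were thus common to both. Of 18 regulators of imprints, 11 had a gene-end region in depleted and 11 in control cells, and 9 in triple-knockout and 8 in wild-type cells. Dnmt3b, a de novo DNA methyltransferase gene (134), and Ctcfl (154) had one in depleted cells only, and Dppa3, which protects methylation in the early embryo (106), and Zfp57 (69.1) in control cells only, which is 2 of 7 each way, against 11.3% and 8.81% of all genes. In the H1 pair Tet1, which encodes an enzyme that oxidises methylated cytosine, had one in triple-knockout cells only, which is 1 of 10, against 9.21% of all genes.

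The 58 start windows of the 36 members in the table, of which a few overlap, held a median of 15 CG dinucleotides, against 13 in protein-coding windows. Windows with a region in all 4 lists (18) had a median of 19, those with one in 1 to 3 lists (20) 16.5, and those with none (20) 7.5. Protein-coding windows in the same classes had medians of 22, 17 and 3. TGCCGC was in 14 of the 58 windows (24.1%, against 14.1% of protein-coding windows and 11.6% of all windows of the table). By class it was in 33.3%, 25% and 15% of the members' windows, against 20.8%, 17.5% and 5.19% of the protein-coding ones. The heptamer GATGGCG, searched on both strands, the core of the motif of YY1, was in 3 windows (5.17%, against 4.29% and 3.49%). A match is a description of the letters and says nothing of binding.

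**Figure D5:**
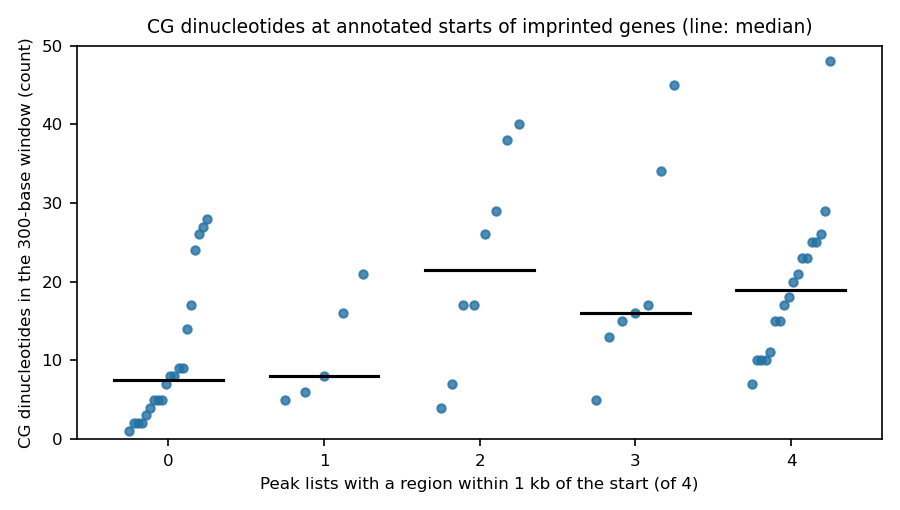
CG dinucleotides in the 300-base window of each annotated start of the members (points, 58 windows), by the number of peak lists with a region within 1 kb of the start, with a line at the median. Windows with a region in no list have a median of 7.5 and those with one in all 4 lists 19, and both classes spread widely.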

How the data were processed

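Per the submitters' processing notes, the build was mm10, and MACS 1.4.2-1, Picard, Bowtie2 and CASAVA 1.8.2 are named without their roles. The settings, such as a shift of reads for the transposase, are not given in the sources used here. A list stands for both replicates of its group, per the labels, from reactions of 50000 cells amplified for 12 PCR cycles. The authors deposited a position and a peak score for each region, and the score served only for ranks and thresholds within a list. The H1 lists hold fragments as short as 1 bp, and 1475 triple-knockout and 1173 wild-type regions repeat a peak name. Widths and counts were therefore compared only within a pair.

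Members were matched by symbol (43 of 43). The gene table gives outer bounds without strand or exons, so both gene ends were used with windows of 1000 bp, and surroundings of 50000 bp. Starts and their strand came from the RefSeq promoter table. A region near several members was counted once. Shares carry exact 95% binomial intervals for counting error only. The members and lists were chosen with earlier results of these data known. Named were all members with a gene-end region in 1 list of a pair, up to 5 members with the highest score per list, the highest-scoring region without a partner per cluster and list, and genes of the other lists with a region in 1 list only. The clusters, the copy known to be expressed and the fragment-joining alternative were written after the files had been seen. The overlap steps (Python 3.11.15, pandas 2.3.3) were tested on simulated data against a direct check of every pair.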

Additional observations from a re-analysis of the deposited data

How the results depend on the processing

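Counts depended on the score more than on the windows. Apart from annotated starts, the alternatives were run for the members only, so no share over all genes or regions stands beside them. Counting regions that scored 100 or more, against all regions of the other list, members with a gene-end region in 1 list only numbered 0 in depleted and 1 in control cells, and 3 in triple-knockout and 1 in wild-type cells, and regions within 50 kb 37 and 26, and 25 and 22. With that score in both lists members numbered 2 in depleted and 2 in control cells, and 7 in triple-knockout and 3 in wild-type cells. The regions then numbered 46 in depleted and 42 in control cells, and 44 in triple-knockout and 34 in wild-type cells. With the top 30000 regions of each list, members numbered 2 in depleted and 2 in control cells, and 5 in triple-knockout and 5 in wild-type cells. Regions then numbered 45 in depleted and 45 in control cells, and 30 in triple-knockout and 41 in wild-type cells, so in the H1 pair the order was turned. Windows of 2500 bp left 4 triple-knockout members, windows of 500 bp gave 4 control members, and surroundings of 20 kb left 42 depleted and 48 control regions, which turned the order of the Ubc9 pair. By construction these settings use fewer or other regions. Triple-knockout members exceeded wild-type ones under 8 of 10 alternatives and equalled them under 2, the top 30000 regions and the windows of 2500 bp. Depleted members exceeded control ones under 6 of 9, equalled them under 2 (the top 30000 regions, and a score of 100 or more in both lists), and were fewer under 1 (that score in the list counted). Depleted regions exceeded control ones under 6 of 8 alternatives, the exceptions being the top 30000 regions and the surroundings of 20 kb. Triple-knockout regions exceeded wild-type ones under 8 of 9, the exception being the top 30000 regions. Joining regions of the same peak name, and counting neighbours that share a region once, were alternatives chosen after seeing the data, and left each count within 1.5 times. No paired analysis was possible because each list stands for both replicates, and for the same reason no replicate could be left out. Read depth, which limits how many weak regions a list holds, is unknown.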
